A study of Mus musculus with 3 samples.

Results

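The cells described here were bone marrow progenitors that carried the Runx1::Runx1t1 fusion reporter, held at least 2 unique molecular identifiers (UMIs) of Hlf, and held no UMI of Cma1. They were thus chosen by measured values, the UMI counts of these 2 genes, before any thinning. They numbered 4858 of the 10419 cells kept in the mCherry library, or 46.6%, and 4858 of 27541 cells kept in all 3 libraries. The mCherry library was made from DAPI-, Lin-, c-kit+, mCherry+ marrow cells of a C57BL/6 mouse with Mx1-Cre and a heterozygous conditional Runx1-Runx1t1 knock-in that has the mCherry sequence downstream of it. Poly(I:C) induces this Cre, which acts in interferon-responsive cells and is not restricted to stem cells. The non_mCherry library held mCherry- cells of the same sort and the same mouse, and the control library held DAPI-, Lin-, c-kit+ cells of a wild-type C57BL/6 mouse. The ages of the mice, and any poly(I:C) treatment of the wild-type one, are not given in the sources used here.

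The Hlf-positive, Cma1-zero mCherry cells, called Hlf-positive mCherry cells below, were set against 3 groups. The Hlf-zero mCherry cells were the 1502 cells of the same library with no UMI of either gene. The Hlf-positive control cells were the 728 control cells with at least 2 Hlf UMIs, 8.03% of that library. The Hlf-positive non_mCherry cells were the 181 such cells of the non_mCherry library, 2.25% of it. Each condition had 1 library, so no test across mice was possible, and the library, the mouse and the condition cannot be told apart; between the mCherry and non_mCherry libraries the mouse was shared.

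Hlf encodes a PAR bZIP transcription factor that is active in haematopoietic stem cells and is switched off as they commit to a lineage. Ly6a encodes Sca-1, a surface marker of mouse stem and early progenitor cells, Mecom encodes the stem cell transcription factor EVI1, and Hmga2 encodes a chromatin protein of fetal stem cells. Cma1 encodes a chymase of mast cell granules, so the gate kept apart cells with that transcript. The fusion, known as AML1-ETO, joins the DNA-binding part of RUNX1 to the corepressor-binding protein RUNX1T1 and is found in human acute myeloid leukaemia. The study, by its title, asked about fatty acid metabolism and blocked differentiation in preleukaemia.

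Of the promoters, 2 are shown because they belong to the gene that chose the cells and to the gene with the highest log2 ratio over control cells. Both are 300 bases of RefSeq sequence on GRCm38.p6, with 250 bases before the annotated start and 50 after it, written on the gene's strand. Hlf lies on the minus strand at chr11:90390868-90391167 and Cpa3 on the minus strand at chr3:20242132-20242431. Capitals mark the RUNX motif TGTGGT and the GATA motif AGATAA, searched on both strands.
Hlf: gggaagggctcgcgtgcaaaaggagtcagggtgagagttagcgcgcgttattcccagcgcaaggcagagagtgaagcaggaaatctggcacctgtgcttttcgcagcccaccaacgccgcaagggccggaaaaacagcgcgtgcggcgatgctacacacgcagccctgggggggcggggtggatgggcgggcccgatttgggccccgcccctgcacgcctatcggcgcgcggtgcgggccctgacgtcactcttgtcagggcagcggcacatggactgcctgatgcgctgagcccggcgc
Cpa3: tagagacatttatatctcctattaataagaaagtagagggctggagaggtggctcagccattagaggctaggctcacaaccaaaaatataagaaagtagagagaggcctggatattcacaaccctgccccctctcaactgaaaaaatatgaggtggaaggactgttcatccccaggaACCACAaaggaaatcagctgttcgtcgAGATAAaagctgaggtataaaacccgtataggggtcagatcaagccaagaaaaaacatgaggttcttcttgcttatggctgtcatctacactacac
The Cpa3 window held both motifs, the RUNX one on the opposite strand, and the Hlf window held neither. Across 32851 promoters of the same length, 16.8% held the RUNX motif and 11.2% the GATA motif. Among the 12 genes with the highest ratio over control cells, 10 matched a promoter, and 4 of their 12 promoters held the RUNX motif. Among the 12 with the lowest ratio, 8 matched, and 3 of their 11 promoters held it. A match describes the letters of the window and is no evidence of binding.

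After cells under 1000 genes, under 2000 UMIs or at 10% or more mitochondrial UMIs were left out, 10419 mCherry, 8056 non_mCherry and 9066 control cells stayed, with median depths of 8241, 9361 and 15621 UMIs. Median depth was 8799.5 UMIs in Hlf-positive mCherry cells, against 7526.5 in Hlf-zero mCherry cells, 11400 in Hlf-positive control cells and 8171 in Hlf-positive non_mCherry cells. To compare levels at equal depth, each cell was therefore thinned at random to 5000 UMIs, which left 4683, 1291, 699 and 143 cells. Levels are UMIs summed over a group and scaled to CPM (counts per 1e+06 UMIs), with 95% exact Poisson intervals that cover counting error only. Between 24 and 42 cell barcodes were shared by any 2 libraries.

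The Hlf gate separated cells by a transcript that was present at low copy number. In the mCherry library 60.4% of Cma1-zero cells held 2 or more Hlf UMIs, against 2.22% in the non_mCherry library and 8.06% in the control library. Control cells with at least 10 Elane UMIs, which are neutrophil progenitors by that gene and should lack Hlf, passed the Hlf threshold in 2.59% of cases at a median of 20534 UMIs. Just outside the gate stood 1678 mCherry cells with 1 Hlf UMI, and just inside it 1366 with 2; their medians were 7739.5 and 8183 UMIs. After thinning, Hlf measured 468 CPM in the Hlf-positive mCherry cells, against 297 CPM in Hlf-positive control cells and 273 CPM in Hlf-positive non_mCherry cells. These levels follow from the gate and are given as a description.

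**Figure D1:**
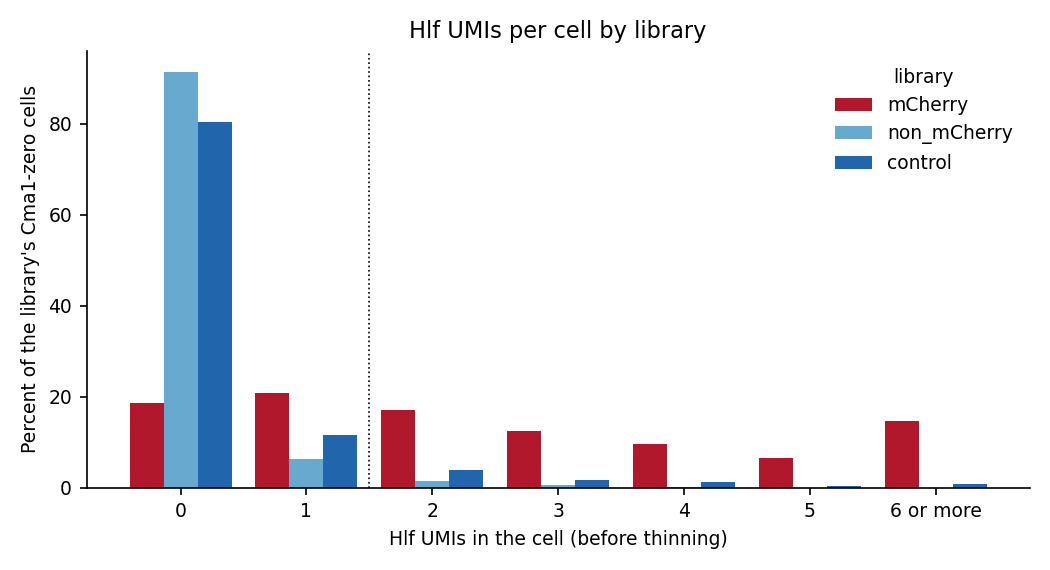
Percent of each library's Cma1-zero cells (vertical axis) by the number of Hlf UMIs in the cell before thinning (horizontal axis), for the mCherry, non_mCherry and control libraries; the dotted line marks the gate. Cells with 2 or more Hlf UMIs made up 60.4% of the mCherry bars, 2.22% of the non_mCherry bars and 8.06% of the control bars.

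The UMI count of Hlf in a cell was partly sampling. When each Cma1-zero mCherry cell's UMIs were split at random into equal parts, cells with at least 2 Hlf UMIs in the part used for gating had a mean of 2.33 in the other part, and 17.8% of them had none there. Cells with none in the gating part had a mean of 0.84 in the other part, and 20.6% of them had 2 or more. In the control library the same means were 1.41 and 0.106. The split describes cells at 0 in 1 part of their UMIs, not the Hlf-zero group, which has none in all of them.

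The cells only partly matched the stem cell label. Ly6a stood at 625 CPM in Hlf-positive mCherry cells (95% interval 615 to 636), against 784 CPM in Hlf-zero mCherry cells, 54.4 CPM in Hlf-positive control cells (46.9 to 62.7) and 143 CPM in Hlf-positive non_mCherry cells. Hmga2 stood at 307 CPM in Hlf-positive mCherry cells, against 210, 41.2 and 64.3 CPM in those same 3 groups. Both genes were higher in both mCherry groups than in the other groups. Mecom ran the other way: it stood at 7.86 CPM in Hlf-positive mCherry cells (6.76 to 9.08), against 4.18 CPM in Hlf-zero mCherry cells, 42.1 CPM in Hlf-positive control cells (35.5 to 49.4) and 26.6 CPM in Hlf-positive non_mCherry cells. Over the non_mCherry cells its log2 ratio was -1.30. With at least 3 Hlf UMIs the ratio was 0.016, but only 45 non_mCherry cells were left. The direction thus did not hold there, and so few cells cannot settle it. After thinning, 3.59% of the Hlf-positive mCherry cells held a Mecom UMI, against 16.0% of Hlf-positive control cells and 0.388% of control cells with at least 10 Elane UMIs. Without thinning these shares were 6.28%, 30.9% and 2.72%, at median depths of 8799.5, 11400 and 20534 UMIs.

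The transcript that stood highest above control cells was a mast cell one. Cpa3, which encodes mast cell carboxypeptidase A3, reached 9061 CPM in Hlf-positive mCherry cells, against 11390 CPM in Hlf-zero mCherry cells, 50.1 CPM in Hlf-positive control cells and 1269 CPM in Hlf-positive non_mCherry cells. It was found in nearly every cell: after thinning the 5th, 50th and 95th percentiles were 7, 36 and 117 Cpa3 UMIs per cell, and 10 of 4683 cells had none. In Hlf-positive control cells the median was 0, and 11.3% held a Cpa3 UMI, against 10.7% of control cells with at least 10 Elane UMIs and 4.99% of those with at least 10 Car1 UMIs (3.87% to 6.31%). The whole mast cell list, Hlf and Cma1 left aside, had UMIs for 17 of its 20 genes in Hlf-positive mCherry cells, with the tryptase gene Tpsab1, the chymase gene Cma2 and the serotonin enzyme gene Tph1 at 0. Its summed level was 12840 CPM, against 15820 CPM in Hlf-zero mCherry cells, 2035 CPM in Hlf-positive control cells and 3828 CPM in Hlf-positive non_mCherry cells. Cpa3 alone made up 9061, 11390, 50.1 and 1269 CPM of these sums, in the same order of groups. In both mCherry groups the sum was thus mostly that gene. For these reasons the cells are named by their gate and not as stem cells.

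The reporter sort itself could be checked only weakly. Runx1t1, the 3′ partner of the fusion, measured 8.71 CPM in Hlf-positive mCherry cells (204 UMIs), against 9.92 CPM in Hlf-zero mCherry cells, 0.286 CPM in Hlf-positive control cells (1 UMI) and 4.20 CPM in Hlf-positive non_mCherry cells (3 UMIs). Runx1 measured 365 CPM in Hlf-positive mCherry cells, against 391, 156 and 235 CPM in those 3 groups. Transcripts of the fusion and of the endogenous genes could not be told apart in these counts. Of the 143 Hlf-positive non_mCherry cells, 14 held over 10 Cpa3 UMIs.

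**Figure D2:**
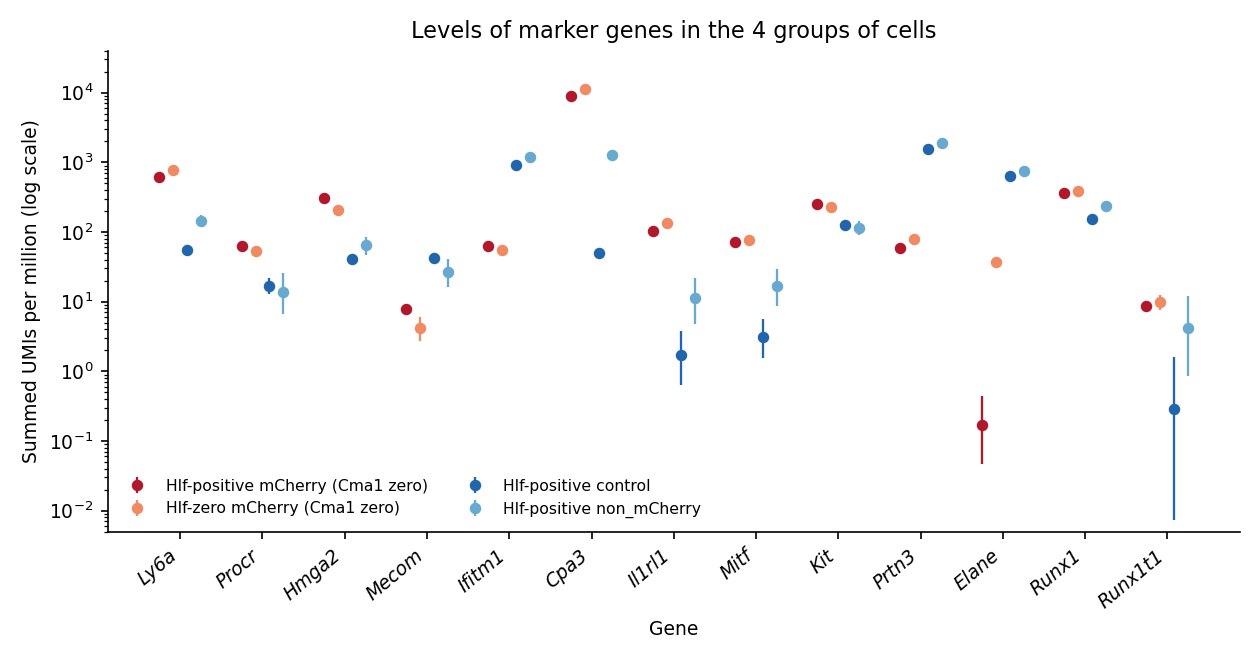
Level of 13 genes in CPM after thinning (vertical axis, log scale) in the 4 groups of cells; points are the summed level of a group and bars its 95% exact Poisson interval. Ly6a, Hmga2, Cpa3 and Il1rl1 are higher in the Hlf-positive mCherry cells than in the Hlf-positive control cells, and Mecom, Ifitm1, Prtn3 and Elane are lower.

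Within the mCherry library, Hlf-positive and Hlf-zero cells were much alike. Of 7943 genes that averaged at least 10 CPM over both groups, 49 (0.617%) were at least 1.5-fold higher in Hlf-positive mCherry cells and 38 (0.478%) at least 1.5-fold lower, on a scale of log2(CPM + 5). The median log2 ratio over all these genes was 0.04. Cell cycle genes had the highest ratios, and transporter, lectin and progenitor genes were among the other higher ones. Slc16a11, a member of the monocarboxylate transporter family, stood at 312 CPM in Hlf-positive cells and 136 CPM in Hlf-zero cells, a 2.29-fold difference (2.13 to 2.46). Clec10a, a C-type lectin gene, stood at 70.5 CPM in Hlf-positive cells and 29.9 CPM in Hlf-zero cells. Flt3, the cytokine receptor of multipotent and lymphoid-primed progenitors, was 2.07-fold higher (1.74 to 2.48), at 45.5 CPM in Hlf-positive cells and 22 CPM in Hlf-zero cells. Homeobox genes of the stem cell list passed the fold as well.

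Hoxa9, a homeobox gene that promotes progenitor self-renewal, stood at 22.6 CPM in Hlf-positive mCherry cells and 10.7 CPM in Hlf-zero mCherry cells, and Nkx2-3 at 26.1 CPM and 12.5 CPM. The stem cell list as a whole was near balance, with 2 of 28 measured genes higher, 2 lower, and a median log2 ratio of 0.02. The 2 lower ones were Gfi1b, a repressor of the megakaryocyte and erythroid branch (6.53 CPM in Hlf-positive cells, 15.8 CPM in Hlf-zero cells), and Apoe, which encodes apolipoprotein E (459 CPM in Hlf-positive cells, 823 CPM in Hlf-zero cells). Hmga2 had a log2 ratio of 0.54 and the progenitor sialomucin gene Cd34 one of 0.54, both short of the 1.5-fold threshold of 0.585. Ly6a had a log2 ratio of -0.32 and so was the lower in the Hlf-positive cells.

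A few mast cell and platelet genes were lower in the Hlf-positive mCherry cells. Of 11 measured mast cell genes none was 1.5-fold higher and 3 were lower, with a median log2 ratio of -0.33, which was -0.17 with cells matched in UMI bins. In those bins Il1rl1 had a log2 ratio of -0.09 and Mitf one of -0.03, while Fcer1a kept -1.02 and Ms4a2 -0.74. Fcer1a, the alpha chain of the high-affinity IgE receptor, stood at 11.6 CPM in Hlf-positive mCherry cells and 35 CPM in Hlf-zero mCherry cells, and its beta chain gene Ms4a2 at 33.1 CPM and 59.6 CPM. Among 8 measured megakaryocyte and platelet genes 2 were lower and none higher. The von Willebrand receptor subunit gene Gp5 stood at 16.7 CPM in Hlf-positive cells and 40.7 CPM in Hlf-zero cells, and the integrin gene Itga2b at 24.3 CPM and 42.1 CPM. Ccl2, a chemokine gene, was 2.15-fold lower (2.03 to 2.29), at 118 CPM in Hlf-positive cells and 254 CPM in Hlf-zero cells, and Sapcd1 stood at 27.1 CPM and 99.8 CPM. Id2, an inhibitor of helix-loop-helix factors, stood at 48.7 CPM in Hlf-positive cells and 87.8 CPM in Hlf-zero cells. No gene passed 1.5-fold either way in the interferon list (34 measured), the list of fusion partners and RUNX genes (15) or the nuclear oxidative phosphorylation list (75), which is near the shares of 0.617% and 0.478% over all genes; their medians were at most 0.07.

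Neutrophil granule genes made up the far end of the lower side, and they came from very few cells. S100a9 and S100a8, which encode calprotectin, stood at 4.78 and 3.12 CPM in Hlf-positive mCherry cells, against 606 and 446 CPM in Hlf-zero mCherry cells. Camp stood at 0.769 CPM in Hlf-positive cells and 180 CPM in Hlf-zero cells, and Elane, the neutrophil elastase gene, at 0.171 CPM and 37.0 CPM. Of the neutrophil granule list, 7 of 13 measured genes were lower, with a median log2 ratio of -2.51. In the Hlf-zero group 6 of 1291 cells held 99.2% of the S100a8 and S100a9 UMIs, and their median Cpa3 count was 0.5 UMIs; 0 of 4683 Hlf-positive mCherry cells had 10 or more such UMIs. With only cells that had no S100a8 and no S100a9 UMI, an alternative added after seeing the data, the lower genes numbered 20, against 38 in all cells, and the log2 ratio of Ngp, another granule gene, was 0.09, against -4.67.

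Cell cycle genes were higher in the Hlf-positive mCherry cells, but the size depended on how depth was handled. Of 34 measured G2 and M phase genes 14 were at least 1.5-fold higher and none lower, with a median log2 ratio of 0.48. Mki67 stood at 70.8 CPM in Hlf-positive mCherry cells and 24.9 CPM in Hlf-zero mCherry cells, Ube2c at 50.7 CPM and 13.9 CPM, Nusap1 at 22.6 CPM and 4.18 CPM, and Cenpf at 51.9 CPM and 16.0 CPM. A UMI of Mki67 or Top2a was found in 28.9% of Hlf-positive mCherry cells (27.6% to 30.2%) and 20.7% of Hlf-zero mCherry cells (18.5% to 23.0%) after thinning. The gate read Hlf before thinning, and Hlf-positive mCherry cells with such a UMI had a median of 10602 UMIs, against 8571 in those without. With Hlf counted after thinning the list's median was 0.04 and the log2 ratio of Ube2c 0.03. With cells matched in bins of UMIs per cell the median was 0.18. That of the S phase list was -0.13 there, against 0.21 in the main comparison. In those bins Cenpf, Nusap1 and Ube2c kept log2 ratios of 1.097, 0.849 and 0.707, past the 1.5-fold threshold. Mki67, at 0.469, and Top2a, at 0.23, fell short of it. Without cells holding an Mki67 or Top2a UMI, an alternative added after seeing the data, the higher genes numbered 26, against 49.

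**Figure D3:**
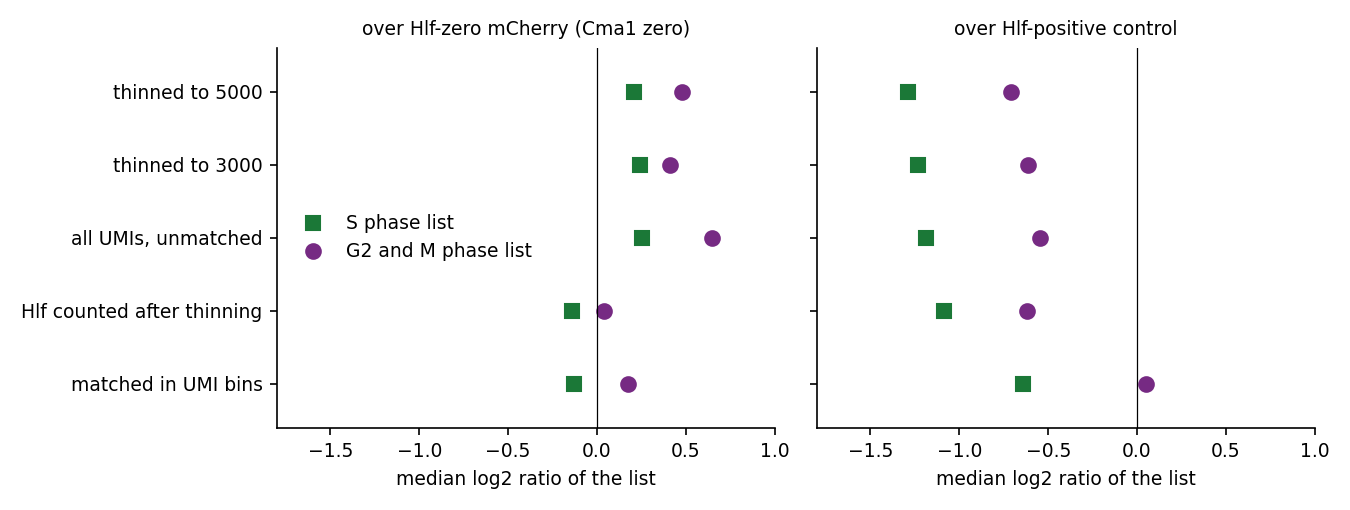
Median log2 ratio of the S phase and the G2 and M phase lists (horizontal axis) of Hlf-positive, Cma1-zero mCherry cells over Hlf-zero mCherry cells (left) and over Hlf-positive control cells (right), under 5 ways of handling depth (vertical axis). Over Hlf-zero cells the S phase median lies at 0.21 after thinning and at -0.13 with cells matched in UMI bins; over control cells the G2 and M phase median lies at -0.71 and at 0.05.

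Several of the genes named above differed by steps across Hlf counts among cells of nearly equal depth, while the summed G2 and M phase list did not hold its difference. For this, added after seeing the data, only Cma1-zero mCherry cells with 7000 to 10000 UMIs were used, with all their UMIs; the classes with 0, 1, 2, 3 to 4, 5 to 9 and 10 or more Hlf UMIs held 626, 782, 620, 809, 578 and 88 cells, at medians of 8232 to 8357 UMIs. From the lowest to the highest class, Slc16a11 measured 140, 213, 272, 319, 389 and 533 CPM. Flt3 measured 23.5, 31.4, 36.2, 46.1, 55.1 and 103 CPM, and Clec10a 33.9, 43.5, 53.0, 69.7, 105 and 130 CPM. Cd34 measured 366, 405, 451, 507, 576 and 691 CPM, and Hmga2 207, 243, 275, 297, 341 and 340 CPM. These 5 genes were higher in each class than in the one below it, except Hmga2 in the highest class. Slc16a11, Clec10a and Flt3 here, and Apoe, Fcer1a and Ccl2 below, were named for their ratio between Hlf-positive and Hlf-zero mCherry cells. A difference between their lowest and highest classes followed in part from that choice, so the classes are given as a description.

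The mast cell genes Cpa3, Il1rl1 and Fcer1a, and Ly6a, were lowest in the class with 10 or more Hlf UMIs, while Kit was highest there. Cpa3 measured 10990, 11260, 10700, 9363, 7522 and 4207 CPM, the IL-33 receptor gene Il1rl1 119, 135, 121, 103, 76.1 and 62.0 CPM, and Fcer1a 27.2, 21.98, 12.2, 16.2, 3.09 and 2.70 CPM. Ly6a measured 753, 722, 681, 657, 576 and 432 CPM, Apoe 745, 683, 512, 493, 359 and 163 CPM, and Ccl2 233, 183, 127, 119, 105 and 20.2 CPM. Mecom measured 5.40, 5.53, 5.61, 6.19, 10.3 and 21.6 CPM, and the highest class was under the 68.6 CPM of 187 Hlf-positive control cells in the same depth range. Kit, the stem cell factor receptor used in the sort and also a member of the mast cell list, measured 207, 235, 243, 262, 296 and 336 CPM. The summed stem cell list stayed between 5039 and 5356 CPM in all 6 classes, and the S phase list between 1053 and 1087 CPM. The summed G2 and M phase list measured 1907, 1750, 1784, 1863, 2063 and 2023 CPM, and stood at 1902 CPM over all cells of this depth with at least 2 Hlf UMIs, against 1907 CPM in the Hlf-zero class. Within this depth range S100a8 measured 265 CPM in the Hlf-zero class and between 2.70 and 3.87 CPM in the other classes. Over all thinned cells it measured 446 CPM in the Hlf-zero class and 64.92 CPM in the class with 1 Hlf UMI. The higher classes there lay between 2.778 and 3.159 CPM. In the thinned Hlf-zero group 6 of 1291 cells held 99.2% of the S100a8 and S100a9 UMIs. How many such cells lay in this depth range was not tested.

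**Figure D4:**
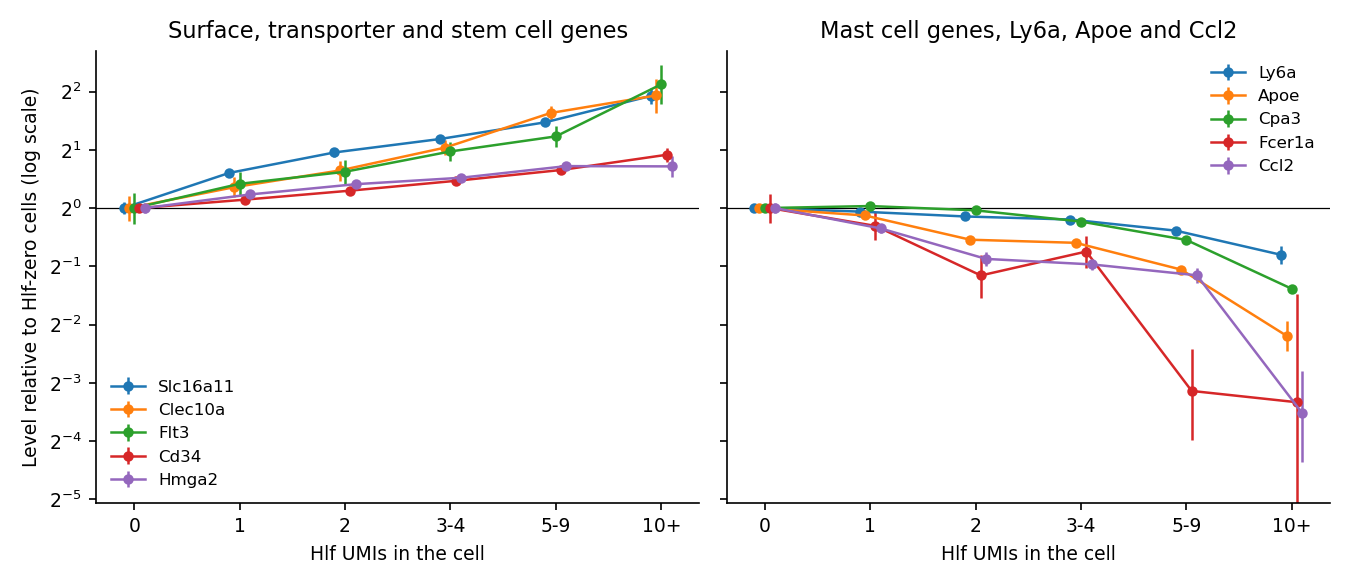
Level of 10 genes relative to the Hlf-zero class (vertical axis, log scale) over classes of Hlf UMIs per cell (horizontal axis) in Cma1-zero mCherry cells with 7000 to 10000 UMIs; bars are 95% exact Poisson intervals of each class. Slc16a11, Clec10a and Flt3 lie highest in the class with 10 or more Hlf UMIs, where Slc16a11 measured 533 CPM against 140 CPM in the Hlf-zero class, while Cpa3 measured 4207 CPM against 10990 CPM.

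Cells just outside the Cma1 side of the gate had more of some mast cell transcripts. The 811 mCherry cells with at least 2 Hlf UMIs and 1 Cma1 UMI had 9910 CPM of Cpa3 and 618 CPM of Ly6a after thinning, against 9061 and 625 CPM in the Cma1-zero cells. They had 21.5 CPM of Fcer1a, 205 CPM of Ccl2 and 140 CPM of Il1rl1, against 11.6, 118 and 104 CPM in the Cma1-zero cells. The 142 cells with at least 2 Hlf UMIs and 10 or more Cma1 UMIs differed more. They had 16860 CPM of Cpa3, 615 CPM of Il1rl1 (104 CPM in the Cma1-zero cells), 775 CPM of Kit (252 CPM) and 178 CPM of Fcer1a (11.6 CPM), and less Hmga2, at 160 CPM (307 CPM), and Cd34, at 233 CPM (507 CPM).

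Against Hlf-positive control cells the differences were far wider. Of 8076 measured genes 1341 (16.6%) were at least 1.5-fold higher in Hlf-positive mCherry cells and 1206 (14.9%) at least 1.5-fold lower, with a median log2 ratio of 0.03 over all genes. Mast cell genes, immediate early genes, interferon response genes and cytokine receptors were mostly higher. Neutrophil granule genes, S phase genes and cholesterol synthesis genes were mostly lower. Of the Hlf-positive control cells, 67 of 699 held at least 5 Elane UMIs and carried 88.8% of that group's Elane UMIs, and 0 of 4683 Hlf-positive mCherry cells did; values from cells with no Elane UMI, an alternative added after seeing the data, are given where they differ.

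The stem cell list was split. It had 13 higher and 7 lower members among 29 measured, beside 16.6% and 14.9% over all genes. Its median log2 ratio was 0.26. Ly6a was 11.5-fold higher (9.97 to 13.3) and Hmga2 7.46-fold higher (6.32 to 8.86). Procr, the endothelial protein C receptor gene used to sort stem cells, stood at 63.5 CPM in Hlf-positive mCherry cells and 16.9 CPM in Hlf-positive control cells, and Fgd5, a guanine nucleotide exchange factor gene of stem cells, at 20.2 CPM and 5.15 CPM. The endoglin gene Eng stood at 201 CPM in mCherry cells and 51.2 CPM in control cells, and Pdzk1ip1 at 109 CPM and 20.03 CPM. The ETS factor gene Erg was 2.24-fold higher (1.97 to 2.56).

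Other stem cell genes were lower. Mecom was 5.35-fold lower (4.28 to 6.68). Ifitm1, an interferon-inducible membrane protein gene that stem cells express, stood at 62.8 CPM in Hlf-positive mCherry cells and 920 CPM in Hlf-positive control cells, and Ifitm3 at 239 CPM and 696 CPM. Mycn, the MYC family gene of resting stem cells, stood at 0.256 CPM in mCherry cells and 20.03 CPM in control cells. Hoxa9 stood at 22.6 CPM in mCherry cells and 84.4 CPM in control cells, and Nkx2-3 at 26.1 CPM and 107 CPM. Meis1, the Hox cofactor gene, was close in both at 151 CPM in mCherry cells and 147 CPM in control cells.

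Mast cell genes other than Cpa3 were mostly higher too. Of 10 measured genes of the list, Cpa3 among them, 8 were higher and 1 lower, beside 16.6% and 14.9% over all genes. The median log2 ratio of the 10 was 1.14. Cpa3 was 181-fold higher (156 to 211). Il1rl1 stood at 104 CPM in Hlf-positive mCherry cells and 1.72 CPM in Hlf-positive control cells, and Mitf, the transcription factor gene that mast cells require, at 71.0 CPM and 3.15 CPM. The vesicular monoamine transporter gene Slc18a2 stood at 160 CPM in mCherry cells and 44.9 CPM in control cells, Ms4a2 at 33.1 CPM and 11.2 CPM, and the histidine decarboxylase gene Hdc at 51.1 CPM and 22.3 CPM. Kit was 2.02-fold higher (1.83 to 2.23). Fcer1a, with 11 UMIs in the control cells, had a log2 ratio of 1.02, which was 0.27 with cells matched in UMI bins.

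Several genes outside these lists were close to absent from the control cells. Gimap4, a GTPase gene of lymphocytes, stood at 96.1 CPM and the secreted protease gene Adamts9 at 88.5 CPM in Hlf-positive mCherry cells, each with 1 UMI in the 699 Hlf-positive control cells. Cyp4b1, a cytochrome P450 gene, stood at 86.5 CPM and Lilr4b, an inhibitory receptor gene with close paralogs, at 109 CPM, again with 1 UMI each in the control cells. Slc45a3, a transporter family gene, stood at 109 CPM in mCherry cells and 2.29 CPM in control cells. Slc16a11 stood at 312 CPM in mCherry cells and 12.9 CPM in control cells. All 6 genes were also present in Hlf-zero mCherry cells, between 71.4 and 144 CPM.

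Immediate early genes, the transcription factors and feedback regulators that cells switch on within minutes of a stimulus, were the list with the highest median, 1.97. Of 26 measured genes 19 were higher in Hlf-positive mCherry cells and 2 lower. Fos stood at 2496 CPM in mCherry cells and 645 CPM in Hlf-positive control cells, Jun at 4920 CPM and 868 CPM, and Egr1 at 559 CPM and 85.5 CPM. The mRNA decay factor gene Zfp36 stood at 1332 CPM in mCherry cells and 178 CPM in control cells, and Tnfaip3, a brake on NF-kappaB signalling, at 230 CPM and 24.0 CPM. The chemokine genes Cxcl2 and Ccl2 stood at 300 and 118 CPM in mCherry cells, against 13.7 and 2.58 CPM in control cells. Chemokine genes as a list went both ways. Of 7 measured, 3 were higher and 3 lower, beside 16.6% and 14.9% over all genes. Ccl9 and Pf4 were among the lower ones, with log2 ratios of -3.77 and -3.28. The immediate early list was slightly higher in Hlf-zero than in Hlf-positive mCherry cells. Its median log2 ratio was -0.21 for Hlf-positive over Hlf-zero cells. The nuclear RNA Malat1 moved with these genes, at 19970 CPM in Hlf-positive mCherry cells, 20060 CPM in Hlf-zero mCherry cells and 7823 CPM in Hlf-positive control cells, while the median mitochondrial share was 2.61%, 2.39% and 2.48%; their part in the immediate early values was not tested.

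Interferon response genes were higher to a lesser degree. Of 32 measured genes 18 were higher and none lower, beside 16.6% and 14.9% over all genes. The list's median log2 ratio was 0.68. Oasl1, an antiviral oligoadenylate synthetase-like gene, stood at 24.7 CPM in Hlf-positive mCherry cells and 1.72 CPM in Hlf-positive control cells. The interferon regulatory factor genes Irf1 and Irf7 stood at 108 and 40.1 CPM in mCherry cells, against 34.0 and 10.9 CPM in control cells, and the GTPase gene Gbp2 at 41.9 CPM and 14.0 CPM. Among cytokine receptors 11 of 16 were higher and none lower. The higher ones included the beta chain genes Csf2rb (103 CPM in mCherry cells, 30.9 CPM in control cells) and Csf2rb2 (16.7 CPM and 3.43 CPM), which are close paralogs. Ifnar1, a type I interferon receptor subunit gene, was another (52.7 CPM and 20.9 CPM).

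Neutrophil granule genes were mostly lower, and genes of myeloid transcription factors went both ways. Neutrophil granule genes were lower in 11 of 13 cases and higher in 1, and their median log2 ratio was -2.60. Elane had 4 UMIs in 4683 Hlf-positive mCherry cells (0.171 CPM), against 636 CPM in Hlf-positive control cells, and the proteinase 3 gene Prtn3 stood at 59.6 CPM and 1562 CPM. Mpo, which encodes myeloperoxidase, stood at 581 CPM in mCherry cells and 960 CPM in control cells; without cells that held an Elane UMI its log2 ratio was 0.79, against -0.72. In those Elane-free cells the list's median was -0.90, and Prtn3 kept a log2 ratio of -3.69. The myeloid factor list had 9 higher and 4 lower members among 19 measured, beside 16.6% and 14.9% over all genes. Its median log2 ratio was 0.39. Cebpa, the C/EBP alpha gene needed for granulocytes, stood at 2.18 CPM in mCherry cells and 38.6 CPM in control cells. Spi1, which encodes PU.1, was 2.31-fold lower (2.11 to 2.54), and Gfi1, a repressor gene of the granulocyte branch, was 6.17-fold higher (4.70 to 8.26).

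Lower levels were also seen for single genes of other branches. Prg2, which encodes eosinophil major basic protein, stood at 0.299 CPM in Hlf-positive mCherry cells and 102 CPM in Hlf-positive control cells, and the erythroid gene Car1 at 0.0854 CPM and 96.7 CPM. Galectin-1 (Lgals1) stood at 3.37 CPM in mCherry cells and 232 CPM in control cells, Ly6c2, a monocyte surface gene, at 0.128 CPM and 53.8 CPM, and Lsp1 at 2.82 CPM and 90.1 CPM. In Elane-free cells the log2 ratio of Prg2 was -0.52, against -4.33, and that of Ly6c2 -1.76, against -3.52. Myl10 stood at 15.7 CPM in mCherry cells and 419 CPM in control cells, Nrgn at 5.68 CPM and 195 CPM, and Hmgn1, which has many processed copies, at 16.3 CPM and 227 CPM. The lists of these branches were small, and over all genes 16.6% were higher and 14.9% lower. Of 6 monocyte and dendritic genes 1 was higher and 3 lower, of 7 basophil genes 1 and 4, and of 7 erythroid genes 1 and 3. Of 11 megakaryocyte and platelet genes 6 were higher and 4 lower. Treml1 was higher (53.4 CPM in mCherry cells, 4.58 CPM in control cells) and Pf4 lower (2.31 CPM and 66.1 CPM).

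Genes tied to the fusion in earlier work went both ways. Of 9 measured genes described as lowered by AML1-ETO, 4 were higher and 3 lower, and of 6 described as raised, 2 were higher and 3 lower. Over all measured genes 16.6% were higher and 14.9% lower. Cd48, an adhesion gene absent from resting stem cells and named among the lowered ones, stood at 636 CPM in Hlf-positive mCherry cells and 145 CPM in Hlf-positive control cells. Gfi1, also named among the lowered ones, was higher too, with a log2 ratio of 2.29. Cebpa and Spi1 of the same list were lower, with log2 ratios of -2.60 and -1.16. Jup, the plakoglobin gene named among the raised ones, stood at 23.7 CPM in mCherry cells and 4.29 CPM in control cells. Bcl2, a survival gene, stood at 10.2 CPM in mCherry cells and 93.6 CPM in control cells, and is also named among the raised ones. The inhibitor genes Id1, Id2 and Id3 stood at 94.5, 48.7 and 49.2 CPM in mCherry cells, against 11.7, 4.86 and 2.29 CPM in control cells. The lymphoid list had 3 higher and 3 lower of 8, with the terminal transferase gene Dntt at 273 CPM in mCherry cells and 93.0 CPM in control cells.

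S phase genes were lower under each way of handling depth, whereas the difference in G2 and M phase genes depended on how depth was handled. In the S phase list 34 of 42 measured genes were lower and none was higher, beside 14.9% and 16.6% over all genes. The list's median log2 ratio was -1.29, and -0.64 with matched cells. Rrm2, a ribonucleotide reductase subunit gene, stood at 7.56 CPM in Hlf-positive mCherry cells and 48.6 CPM in Hlf-positive control cells, and Mcm5, part of the replicative helicase, at 36.3 CPM and 139 CPM. In the G2 and M phase list 26 of 44 were lower, and the median was -0.71 after thinning, -0.55 without thinning and 0.05 with matched cells; the log2 ratio of Mki67 was -1.29 after thinning and -0.05 with matched cells. Among cells with 7000 to 10000 UMIs, all UMIs kept, the summed G2 and M phase list still differed. It measured 1902 CPM in Hlf-positive mCherry cells and 2879 CPM in 187 Hlf-positive control cells. Mki67 measured 25.2 and 85.0 CPM in these cells. Why the 2 ways differ was not tested. A UMI of Mki67 or Top2a was found in 28.9% of Hlf-positive mCherry cells and 52.8% of Hlf-positive control cells. Cyclin D1 (Ccnd1) stood at 1.15 CPM in mCherry cells and 29.2 CPM in control cells, Ccnd2 at 63.9 CPM and 203 CPM, and the antiproliferative genes Btg1 and Btg2 at 644 and 980 CPM in mCherry cells, against 91.6 and 189 CPM in control cells.

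Genes of fatty acid oxidation, the pathway nearest the study's title, did not pass the fold in either direction. None of 22 measured genes was 1.5-fold higher or lower in Hlf-positive mCherry cells over Hlf-positive control cells, with a median log2 ratio of -0.04. Of 25 genes of fatty acid synthesis, uptake and storage 2 were higher and 5 lower, beside shares of 16.6% and 14.9% over all genes. The elongase gene Elovl7 stood at 37.5 CPM in mCherry cells and 3.43 CPM in control cells. Of 11 cholesterol synthesis genes 7 were lower and none higher, with squalene epoxidase (Sqle) at 4.997 CPM in mCherry cells and 24.6 CPM in control cells; the list's median was -0.66, and -0.30 with cells matched in UMI bins. Among 18 glycolysis genes 9 were lower and 3 higher, with lactate dehydrogenase B (Ldhb) at 1.45 CPM in mCherry cells and 55.2 CPM in control cells and the glucose transporter gene Slc2a3 at 86.8 CPM and 36.1 CPM. Among 75 nuclear oxidative phosphorylation genes 27 were lower and 1 higher, with Atp5g1 at 245 CPM in mCherry cells and 605 CPM in control cells, while of 13 mitochondrially encoded genes 2 were higher and 1 lower.

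**Figure D5:**
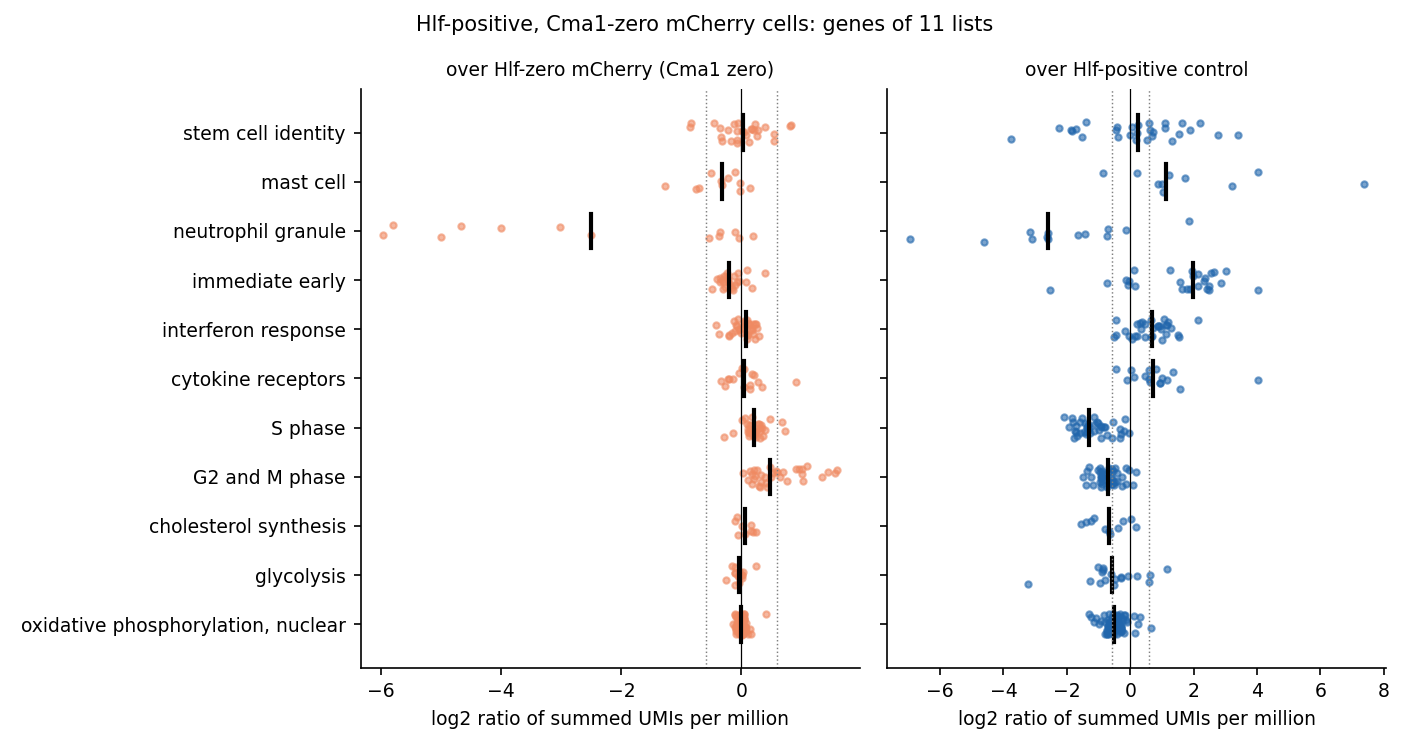
Log2 ratio of CPM (horizontal axis) for the measured genes of 11 lists (rows) in Hlf-positive, Cma1-zero mCherry cells over Hlf-zero mCherry cells (left) and over Hlf-positive control cells (right); points are genes, black bars medians, and dotted lines the 1.5-fold threshold. Over control cells the immediate early list has a median of 1.97 and the neutrophil granule list one of -2.60; over Hlf-zero cells the immediate early median is -0.21.

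The comparison with Hlf-positive non_mCherry cells, from the same mouse, rests on 143 such cells and shares its Hlf-positive mCherry cells with the comparison over control cells. Of 7983 measured genes 1568 (19.6%) were at least 1.5-fold higher in Hlf-positive mCherry cells and 1053 (13.2%) lower; a gene at the minimum of 10 CPM has few UMIs in so few cells. The paralogs Lilrb4a and Lilr4b and then Slc16a11 led the higher side, with log2 ratios of 3.65, 3.25 and 3.15, and Cpa3 had one of 2.83. Elane and Ifitm1 were lower, with log2 ratios of -7.20 and -4.16. Fos stood at 2496 CPM in Hlf-positive mCherry cells and 646 CPM in Hlf-positive non_mCherry cells, and 19 of 26 immediate early genes were higher, with a median of 1.53. The non_mCherry group also held lymphoid RNA, with 6 of 7 B and T cell genes lower in the mCherry cells and the surrogate light chain gene Vpreb1 at 0.897 CPM in mCherry cells and 85.3 CPM in non_mCherry cells; 21 of its 143 cells held at least 5 Elane UMIs. Without the cells over 10 Cpa3 UMIs, an alternative added after seeing the data, the log2 ratio of Cpa3 was 5.49.

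Among the Hlf-positive mCherry cells themselves, variation was described by the variance of a gene's thinned UMIs over its mean, the Fano factor. Its median was 1.04 over 5996 genes with at least 0.1 UMIs per cell, near the value of counting noise, and 162 genes were above 2. Hlf itself was at 1.31, in cells truncated by the gate. Malat1 (34.4) and Cpa3 (26.9) led, and next came Ccl4 (18.6), H3f3b (16.1), Fos (13.7), Jun (13.7), Cxcl2 (13.5), the beta globin gene Hbb-bt (13.2) and Ccl2 (10.1). The chemokine genes were uneven: Ccl4 was absent from 76.2% of the thinned cells, and the top 5% of cells held 67.6% of its UMIs; for Ccl2 these shares were 84.1% and 74.3%. Cpa3 and Jun were spread more evenly, with the top 5% of cells holding 15.9% and 13.9% of the UMIs.

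Cells with a UMI of Mki67 or Top2a had less Ly6a and Ccl2 than the rest. The 1352 such cells had 8142 CPM of Cpa3, against 9434 CPM in the 3331 without, 498 and 677 CPM of Ly6a, and 71.3 and 137 CPM of Ccl2. Slc16a11 stood at 291 CPM in the cells with such a UMI and 320 CPM in those without, Flt3 at 46.0 CPM and 45.3 CPM, Cd34 at 516 CPM and 504 CPM, and Hlf at 444 CPM and 477 CPM. Fos and Jun stood at 2103 and 4262 CPM in the cells with such a UMI, against 2656 and 5187 CPM in those without.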

How the data were processed

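Single-cell RNA libraries of sorted c-kit+ marrow cells, 1 per group, were sequenced as 150-bp paired ends, per the labels' protocols. The authors deposited raw UMI counts per gene and cell; the submitters' processing notes name Cell Ranger 6.1.2 and mm10, and the file headers give software version 3.1.0. Replicate mice were not available, so intervals cover counting error only.

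Cells with at least 1000 genes, 2000 UMIs and under 10% mitochondrial UMIs were kept and gated on deposited counts. Each cell was thinned to 5000 UMIs, leaving out 175 Hlf-positive and 211 Hlf-zero mCherry cells, 29 control cells and 38 non_mCherry cells as too shallow. UMIs were summed by group, scaled to CPM, and compared as log2 ratios with 5 CPM added; genes averaging at least 10 CPM over both groups counted as measured, and a ratio of at least 1.5-fold as higher or lower. A fold with an interval is the plain ratio of CPM. A count of 3 UMIs, the limit that none allows, is 0.128 CPM in Hlf-positive mCherry cells, against 0.465, 0.858 and 4.20 CPM in Hlf-zero mCherry, control and non_mCherry cells.

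Doublets were scored with Scrublet in scanpy 1.11.5. Its automatic threshold called 0 mCherry cells, so it did not work there; all cells were kept, and leaving out scores over 0.25 (128 Hlf-positive mCherry cells) was an alternative. The genes named were the 12 highest and 12 lowest per comparison, up to 4 per list and a fixed set of markers; others were chosen after their values were seen, and some genes the rule names are not reported here. The members and lists were chosen with earlier results of these data known. The computation of ratios was tested on simulated data; numpy 2.4.6, scipy 1.17.1 and pandas 2.3.3 were used.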

Additional observations from a re-analysis of the deposited data

How the results depend on the processing

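No paired analysis was possible because each group came from 1 library. Over control cells, 77 of the 86 named genes past 1.5-fold stayed past it in each of 18 alternatives; over Hlf-zero cells 8 of 27 did in 16, and over non_mCherry cells 11 of 15 in 18. Over Hlf-zero cells the 49 higher genes numbered 31 with at least 1 Hlf UMI, 79 with at least 3, 21 with Hlf counted after thinning, 27 with cells matched in UMI bins, 80 with 1 CPM added, 17 with 20 CPM added, 25 at a minimum of 20 CPM and 80 with no minimum. The 38 lower genes numbered 25 with 20 CPM added and 98 with no minimum. With 20 CPM added, higher and lower genes numbered 802 and 777 over control cells and 894 and 622 over non_mCherry cells.

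These signs turned. Over Hlf-zero cells, Clspn and Prim1 (0.72 and 0.67) had log2 ratios of -0.070 and -0.147 with Hlf counted after thinning, and -0.265 and -0.187 in matched bins. Over control cells, the median of the megakaryocyte list (0.72) was -0.197 with at least 1 Hlf UMI and -0.545 with no minimum; that of the adhesion list (0.59) was -0.039 with no minimum, and that of the G2 and M phase list (-0.71) 0.052 in matched bins. Over non_mCherry cells, Mecom (-1.30) was 0.016 with at least 3 Hlf UMIs, where 45 non_mCherry cells were left. With Hlf counted after thinning, which left 57 of them, the G2 and M phase median (-0.68) and Mki67 (-1.34) were 0.078 and 0.088. That median was 0.001 in matched bins.

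Alternatives added after seeing the data left out cells with given UMIs. Without Mki67 or Top2a the higher genes over Hlf-zero cells numbered 26, with Ube2c at -0.056 and Elane at 0.041, and over control cells Mpo was at 0.204. Without S100a8 or S100a9 the lower genes over Hlf-zero cells numbered 20, with Ngp at 0.092. Without Elane, over control cells, Mpo was at 0.79 and the monocyte and dendritic median at 0.226. The cause of these changes was not tested. With 143 non_mCherry cells, a gene at 10 CPM there has few UMIs.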
